A study of Mus musculus with 115 samples.

Results

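Testosterone was compared with a blank capsule in the inguinal fat of gonadectomised mice of the 2 genotypes that develop ovaries. The comparison takes the adipose arrays labelled XX T and XY- T (9 arrays) against those labelled XX B and XY- B (8 arrays), which makes 17 of the 55 adipose arrays and of the 115 arrays of the whole study. Both genotypes lack Sry, the gene that starts testis development: XX mice carry no Y chromosome, and the Y chromosome of XY- mice has lost Sry. There were 3 arrays of XX B, 5 of XY- B, 4 of XX T and 5 of XY- T. All mice were on a C57BL/6J background, lost their gonads at 75 days of age, and received at once a Silastic capsule that was empty (B, blank) or held testosterone (T, 5 mM). Tissue was taken 3 weeks later. The labels place the resulting testosterone level high in the physiological range, so the comparison asks what an androgen does to the fat of mice that had had ovaries. Mice with ovaries had lived with their own ovarian hormones until the operation, and that earlier exposure is shared by every group compared here. The same comparison in the testis line (XXSry and XY-Sry, which carry Sry as a transgene; 10 T and 9 B arrays) and the estradiol arrays of the ovary line (10 arrays, 50 µg capsules) are used only as values to set beside these. For 1 of those estradiol arrays (XX E replicate 1) the labels conflict, its title naming estradiol and another field testosterone, and it was kept as estradiol.

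Testosterone is a steroid hormone that acts on transcription in its target cells, and fat cells can also turn part of it into other steroids. Androgens are known for effects on fat cell differentiation, lipid storage and the response to glucocorticoids. White fat cells make fatty acids from acetyl-CoA by de novo lipogenesis, store them as triglyceride, and secrete proteins that include hormones and some acute-phase proteins. Inguinal fat is a subcutaneous depot that holds a lymph node and mammary tissue and lies against muscle, so that pieces of these can be dissected with it. In bulk tissue, a lower signal cannot be told apart between fewer cells of a type and less RNA in each.

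The sex chromosome transcripts of the arrays matched their labels. Xist, the RNA that silences an X chromosome, was 7.01 to 7.68 in the 7 XX arrays and 4.73 to 5.36 in the 10 XY- arrays, and the Y-linked gene Eif2s3y was 4.50 to 5.83 and 8.19 to 9.78, on the log2 signal scale used throughout (background-corrected and quantile-normalised bead signal with 16 added). The median raw signal of an array was 133 to 230, and 40.3% to 46.7% of the 25697 probes were detected (detection p under 0.01). Adipoq and Plin1, which define fat cells, were detected in every array, and the mean of the 15 probes of 12 fat cell markers lay between 10.02 and 11.19 in all 17 arrays. Of the probes, 14636 (10742 gene symbols) were bright enough to test. A difference is the mean of the XX and the XY- difference, testosterone minus blank, given with its standard error (SE) from limma, and a probe is called when its Benjamini-Hochberg adjusted p over all tested probes is under 0.05.

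Few probes passed the test of testosterone against blank in this fat. With this number of arrays, a probe that was not called may still have changed. limma called 61 probes of 53 genes, which is 0.417% of those tested. Of these, 27 probes of 22 genes were higher (0.184%) and 34 probes of 31 genes were lower (0.232%). A change of at least 2-fold was seen in 37, 18 of them up and 19 down. The largest increases, by gene, were those of Prtn3, Hp, Il1r2, Inmt and Egfr. With background correction, the largest decreases were those of Elovl6, Lctl, Tkt and Fabp5. Without it, Lctl, the called Tkt probes and Fabp5 had smaller decreases, given below, than Acss2 and Cdsn. Those of Acss2 and Cdsn stayed at -1.13 and -1.07 or lower under every alternative. All 61 had the same sign in XX and in XY- mice, which calling on the mean of the XX and XY- differences favours. In 16 of the 61 the 9 testosterone arrays and the 8 blank arrays did not overlap at all, 11 higher and 5 lower, against 19 of all 14636 probes (0.13%). No called probe was placed on the X or Y chromosome by the array table, which gave no chromosome for 15 of them. Tspan6, 1 of those 15, lies on chromosome X in RefSeq. The median difference over all tested probes was -0.01. The count fell to 38 without XX B replicate 3 and also without XX T replicate 4, and with median centring in place of quantile normalisation it was 29, of which 55.2% were higher in place of 44.3%. Without background correction the differences of dimmer probes were smaller by over 1.5 times, with 1.61 for Il1r2, 0.90 for Rprml, 0.79 for Avpr1a, -0.96 for Lctl, -0.93 and -0.94 for the called Tkt probes, -0.63 for Fabp5, -0.56 for Crtac1, -0.56 for Mest and -0.84 for LOC386463, all still called.

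**Figure D1:**
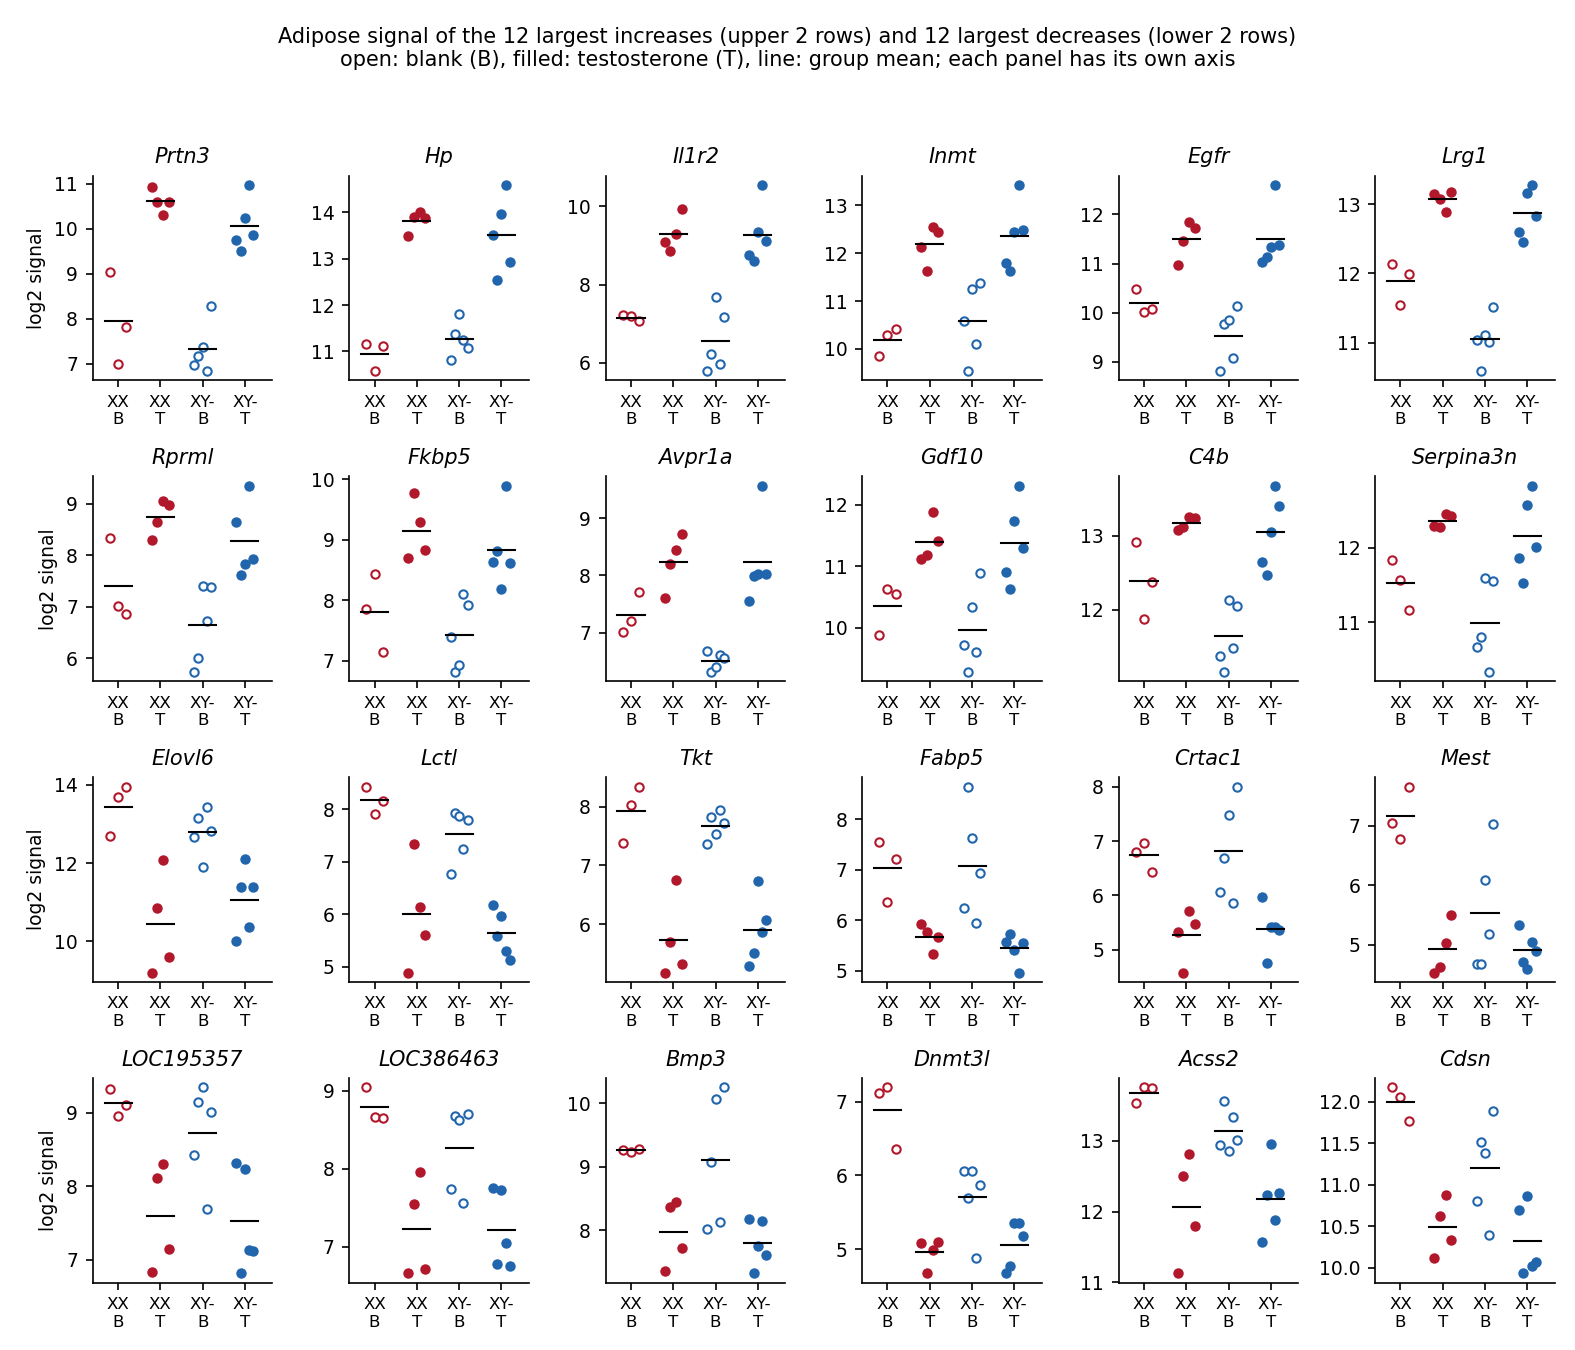
Log2 signal of the 24 named genes in each array, by genotype (XX red, XY- blue) and capsule (B open, T filled), with the group mean as a line; the upper 2 rows hold the 12 largest increases and the lower 2 rows the 12 largest decreases. Il1r2 lies between 5.80 and 7.68 in the blank arrays and between 8.61 and 10.55 in the testosterone arrays, while the blank arrays of Mest spread from 4.67 to 7.66.

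Hp encodes haptoglobin, a secreted acute-phase protein that binds free haemoglobin and is made by liver and by fat cells. Its probe with the smallest p was at 11.16, 10.58 and 11.11 in XX B, at 10.82, 11.38, 11.81, 11.25 and 11.07 in XY- B, at 13.48, 13.90, 14.01 and 13.88 in XX T, and at 13.51, 12.54, 13.95, 14.59 and 12.93 in XY- T. Every testosterone array lay above every blank array. The difference was 2.55 ± 0.21 (SE, limma adjusted p = 7.8e-12), or 5.87-fold. The other 2 Hp probes differed by 2.54 and 2.02, also without overlap. Because haptoglobin is also a liver transcript, its values were set against the liver markers: XX T replicate 4, the array with the most liver signal, had Hp at 13.88 and was not the highest array, and albumin (Alb) passed detection in no blank array and in 1 of the 9 with testosterone.

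Prtn3, which encodes proteinase 3, a serine protease best known from neutrophil granules, had the largest increase. It was at 9.04, 6.98 and 7.81 in XX B and at 6.97, 7.18, 7.37, 6.84 and 8.27 in XY- B. With testosterone it was at 10.92, 10.60, 10.30 and 10.59 in XX and at 9.74, 9.51, 10.24, 10.97 and 9.85 in XY-. The lowest testosterone array was thus above XX B replicate 1, the highest blank array. The difference was 2.70 ± 0.25 (SE, limma adjusted p = 2.43e-10), or 6.48-fold.

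Il1r2 encodes the decoy receptor of interleukin 1, which binds the cytokine without passing on its signal. It was at 7.21, 7.19 and 7.07 in XX B, at 5.80, 6.22, 7.68, 5.98 and 7.19 in XY- B, at 9.08, 8.87, 9.28 and 9.93 in XX T, and at 8.76, 8.61, 9.36, 10.55 and 9.11 in XY- T. The groups did not overlap, and the probe was detected in 9 of 9 testosterone arrays and 6 of 8 blank arrays. The difference was 2.42 ± 0.29 (SE, limma adjusted p = 3e-07), or 5.35-fold. Among 17 tested genes of the interleukin 1 system and related cytokines (23 probes), Il1r2 was the only one called, and the median difference of the list was 0.05. The cytokine Il1b differed by 0.06 ± 0.51 and was detected in 3 of 9 and 3 of 8 arrays, Tnf by 0.03 ± 0.59, and the signalling receptor Il1r1 was not detected in any array of either arm.

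The list of adipokines and acute-phase proteins had 20 of its 24 genes tested (23 probes), of which 4 probes were called, all higher: the 3 of Hp and that of Serpina3n. The median difference of the list was 0.15. Serpina3n, a secreted inhibitor of serine proteases, was 10.34 to 11.84 (median 11.36) in the blank arrays and 11.53 to 12.83 (median 12.29) in the testosterone arrays, which overlapped narrowly. Its difference was 1.01 ± 0.19 (SE, limma adjusted p = 0.00213). The hormones that fat is best known for did not pass the test: leptin (Lep) differed by -0.35 ± 0.25 and adiponectin (Adipoq) by -0.06 ± 0.11. The orosomucoids, also acute-phase proteins, had negative values, with -0.73 ± 0.24 for Orm1 and -0.86 ± 0.37 for Orm2 (limma adjusted p = 0.288 and 0.569).

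The stretches before the starts of Il1r2 and Serpina3n are shown because each holds 1 of the motifs searched within the 250 bases upstream of the start given by RefSeq (assembly GRCm38.p6, which may not be the build behind the array). Capitals mark TTCNNNGAA, the palindrome that STAT factors bind, in Il1r2, and AGAACA, a hexamer that steroid receptors such as the glucocorticoid receptor bind, in Serpina3n. Both strands were searched, a palindromic motif counted once.
Il1r2 (chr1:40085843-40086092, plus strand): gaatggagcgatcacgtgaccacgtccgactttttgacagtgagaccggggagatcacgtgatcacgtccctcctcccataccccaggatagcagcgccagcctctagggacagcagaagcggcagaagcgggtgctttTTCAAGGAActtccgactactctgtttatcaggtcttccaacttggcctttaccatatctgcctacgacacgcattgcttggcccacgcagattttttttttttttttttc
Serpina3n (chr12:104406458-104406707, plus strand): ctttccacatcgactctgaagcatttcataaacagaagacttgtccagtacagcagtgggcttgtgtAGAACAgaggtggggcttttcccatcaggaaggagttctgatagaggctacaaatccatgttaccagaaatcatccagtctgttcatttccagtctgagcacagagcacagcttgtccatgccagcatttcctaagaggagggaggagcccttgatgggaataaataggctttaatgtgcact
Such matches were no more than sparse among the called genes. RefSeq's table held the promoter of 19 of the 22 higher genes and 23 of the 31 lower genes, and that of Hp was not among them. AGAACA was found in 1 of the 19 (Serpina3n) and in 3 of the 23 (Kcnk2, Pth1r and Tspan6), against 16.2% of all 27025 promoters. TTCNNNGAA was found in 2 of the 19 (Il1r2 and Rprml) and 3 of the 23 (Cdsn, Gpx8 and Strip2), against 7.18%. The full inverted repeat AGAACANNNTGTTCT was found in none of them and in 1 promoter of all. A match is a description of letters, and sites farther from the start were not searched.

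Lrg1, a secreted glycoprotein of the acute phase, was 10.59 to 12.14 (median 11.32) with blank and 12.46 to 13.28 (median 13.08) with testosterone, with no overlap and a difference of 1.50 ± 0.15 (SE, limma adjusted p = 1.71e-09). Complement C4b was 11.16 to 12.91 (median 11.97) and 12.47 to 13.67 (median 13.12), with a difference of 1.09 ± 0.16 (4.29e-05). XX B replicate 1 was the only blank array above the lowest testosterone array in C4b. Inmt, an enzyme that methylates tryptamine and other indoles, was 9.54 to 11.39 (median 10.35) and 11.63 to 13.43 (median 12.44), again with no overlap, and differed by 1.89 ± 0.30 (limma adjusted p = 1.44e-04).

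Receptors and growth factors were also among the increases. Egfr, the receptor of epidermal growth factor, was measured by 4 probes, of which 3 were called, with differences of 1.69, 1.64 and 1.49. The remaining probe differed by 0.71 ± 0.23 and was not called (limma adjusted p = 0.246). On the probe with the smallest p, Egfr was at 10.48, 10.02 and 10.08 in XX B, at 8.82, 9.77, 9.85, 9.08 and 10.14 in XY- B, at 10.97, 11.47, 11.86 and 11.73 in XX T, and at 11.03, 11.14, 11.34, 12.60 and 11.39 in XY- T. On this probe every testosterone array lay above every blank array, and the difference was 1.64 ± 0.20 (SE, limma adjusted p = 4.58e-07), or 3.12-fold. Avpr1a, a vasopressin receptor, was 6.32 to 7.72 (median 6.65) with blank and 7.55 to 9.56 (median 8.02) with testosterone, a difference of 1.32 ± 0.26 (0.00422). Gdf10, a secreted factor of the BMP family, was 9.28 to 10.89 (median 10.11) and 10.63 to 12.31 (median 11.30), a difference of 1.23 ± 0.24 (0.00313). Rprml, a gene related to the p53 target reprimo, was 5.74 to 8.33 (median 6.94) and 7.61 to 9.34 (median 8.64), a difference of 1.48 ± 0.30 (0.00513). In Avpr1a, Gdf10 and Rprml the highest blank arrays lay within the range of the testosterone arrays.

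Genes known to respond to androgens or glucocorticoids in other tissues were tested as a list of 18, of which 16 were tested (21 probes). limma called 2 probes, both higher, and the list's median difference was 0.17. Fkbp5, a co-chaperone of steroid receptors that androgens and glucocorticoids are known to raise, was 6.82 to 8.43 (median 7.63) with blank and 8.19 to 9.89 (median 8.82) with testosterone. Only XX B replicate 2 and XY- T replicate 3 crossed, and the difference was 1.37 ± 0.29 (SE, limma adjusted p = 0.0117). Mt1, a metallothionein that binds zinc, was 13.19 to 13.90 (median 13.44) and 13.96 to 14.57 (median 14.28), with no overlap and a difference of 0.69 ± 0.14 (0.00717). The call of Mt1 ended with slide as a fixed block (adjusted p = 0.110), with median centring (0.0667) and without XX B replicate 2 (0.0604), and that of Fkbp5 with median centring (0.0667) and without XX B replicate 3 (0.108). Other glucocorticoid targets did not pass the test, with 0.38 and 0.17 for the 2 probes of Tsc22d3 and 0.10 for Klf9. The polyamine enzyme Amd1 was detected in 5 of 9 testosterone and in no blank arrays (1.59 ± 0.46, limma adjusted p = 0.139).

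Genes tied to estrogen action showed no called difference. Esr1, the estrogen receptor, was 7.40 to 9.75 with blank and 7.30 to 8.66 with testosterone, a difference of -0.72 ± 0.27 (SE, limma adjusted p = 0.419). Pgr and Greb1, which estrogen raises in many tissues, were not detected in any testosterone array, and in 1 and 0 of the 8 blank arrays, so no fold is given (Greb1 by its probe with the smallest p). With estradiol the mean of Greb1 was 8.62 and that of Pgr 6.598. Of the list of steroid receptors and steroid enzymes, 16 of 24 genes were tested (25 probes) and none was called. Within it the glucocorticoid-regenerating enzyme Hsd11b1 had 3 bright probes with differences of 0.58, 0.50 and 0.43, and Akr1c18, which inactivates progesterone, differed by -1.64 ± 0.46 (limma adjusted p = 0.12).

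De novo lipogenesis held 5 of the 34 called decreases. Of 24 genes on that list 21 were tested (28 probes), and the 5 called probes, of 4 genes, were all lower: Elovl6, Tkt (2 probes), Acss2 and Acly. Of the 28 probes, 26 had negative differences, 19 had an unadjusted p under 0.05, and the median was -0.69, against -0.01 and 1027 of 14636 over all tested probes. Median differences were -0.74 in XX and -0.50 in XY-. The members that were not called include the central enzymes Fasn (-1.28 ± 0.43, SE, limma adjusted p = 0.291) and Acaca (-0.69 ± 0.22, 0.224) and the NADPH-making malic enzyme Me1 (-1.30 ± 0.32, 0.0508, and -1.39 ± 0.36, 0.0731). The regulators of the pathway had small values, -0.25 ± 0.28 for Srebf1 and -0.06 ± 0.25 for Mlxipl (ChREBP).

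Elovl6, which lengthens palmitate to stearate, had the largest decrease of all. It was at 12.68, 13.69 and 13.95 in XX B, at 12.66, 13.15, 11.90, 13.43 and 12.81 in XY- B, at 9.20, 10.85, 12.09 and 9.60 in XX T, and at 10.003, 11.38, 12.11, 10.37 and 11.39 in XY- T. Only XY- B replicate 3 lay within the range of the testosterone arrays. The difference was -2.37 ± 0.44 (SE, limma adjusted p = 0.00158), a 5.18-fold decrease. Its upstream stretch is shown for comparison with those above. It holds none of the motifs searched, nor TCACNCCAC, a core of the sterol regulatory element, which was found in none of the called genes' promoters and in 1.04% of all.
Elovl6 (chr3:129532136-129532385, plus strand): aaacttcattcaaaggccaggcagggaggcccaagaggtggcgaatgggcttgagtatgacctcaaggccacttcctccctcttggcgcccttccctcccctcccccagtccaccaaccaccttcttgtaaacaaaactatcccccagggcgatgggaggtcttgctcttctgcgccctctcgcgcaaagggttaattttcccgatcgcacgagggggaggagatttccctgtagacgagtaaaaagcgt
Tkt, the transketolase of the pentose phosphate pathway, was at 7.39, 8.04 and 8.34 in XX B and 7.37, 7.82, 7.53, 7.95 and 7.73 in XY- B on its first probe. It was at 5.17, 5.70, 6.75 and 5.31 in XX T and at 5.29, 5.51, 6.73, 5.87 and 6.07 in XY- T, with no overlap and a difference of -1.99 ± 0.34 (5.49e-04). That probe passed detection in all 8 blank arrays but in 3 of the 9 with testosterone. Another called probe differed by -1.85 ± 0.40, and its call ended with median centring (adjusted p = 0.0701) and on removing XX B replicate 2 (0.0515) or replicate 3 (0.0955). The remaining probe, bright in every array, differed by -0.47 ± 0.22 and was not called (limma adjusted p = 0.658), so the probes of this gene disagreed in size.

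Acss2 (listed under its older symbol Acas2) and Acly, which make cytosolic acetyl-CoA from acetate and from citrate, were among the brightest transcripts. Acss2 was 12.86 to 13.75 (median 13.43) with blank and 11.13 to 12.96 (median 12.24) with testosterone, and differed by -1.29 ± 0.31 (SE, limma adjusted p = 0.0367). Acly was 14.01 to 14.76 (median 14.41) and 12.51 to 14.19 (median 13.37), and differed by -1.16 ± 0.25 (0.0127). A dimmer probe of Acss2 differed by -0.83 ± 0.34 and was not called. Within the blank range lay only XY- T replicate 3 in Acss2, and XX T replicate 3 and XY- T replicate 3 in Acly. The same 2 arrays, XX T replicate 3 and XY- T replicate 3, were the highest of the 9 testosterone arrays in Elovl6, Acss2, Acly and the first Tkt probe. In the other called Tkt probe XX T replicate 3 was again the highest, at 7.28, followed by XY- T replicate 4 at 6.49. The call of Acss2 ended on removing any single one of 11 of the 17 arrays, and that of Acly without XX B replicate 3 (adjusted p = 0.0562) or XX T replicate 4 (0.0669). With slide as a fixed block both calls ended (adjusted p = 0.112 and 0.103), as they did with median centring (0.136 and 0.0991). Both stayed called with slide as a random block. The call of Acss2 also ended without the filter on dim probes (limma adjusted p = 0.059).

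**Figure D2:**
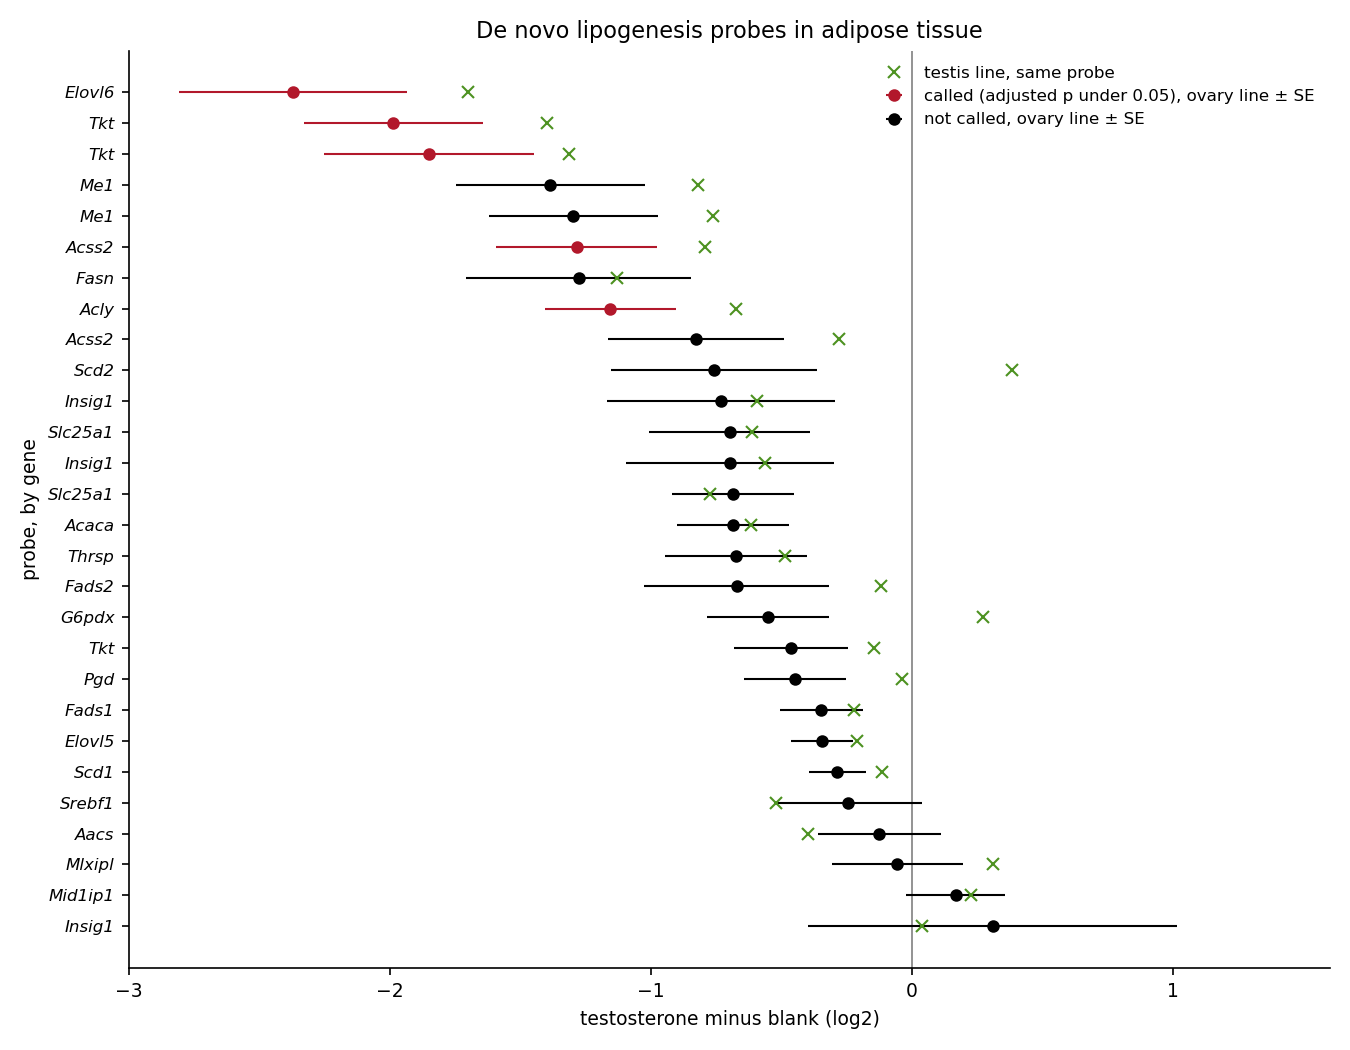
Difference between testosterone and blank (log2) for the 28 tested probes of de novo lipogenesis genes in the ovary line, as points with SE bars (red where called), and in the testis line as crosses. In the ovary line 26 of the 28 points lie below 0, from -2.37 for Elovl6, and 5 are called.

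Other sides of lipid handling did not show calls in the same way. Of the triglyceride synthesis and lipid droplet list, 22 genes (26 probes) were tested with a median of 0.04, and only Fabp5 was called. Fabp5, a fatty acid binding protein also found in skin and macrophages, was 5.94 to 8.64 (median 7.07) with blank and 4.96 to 5.92 (median 5.57) with testosterone, without overlap (-1.49 ± 0.31, SE, limma adjusted p = 0.00818). It was detected in 8 of 8 blank arrays and 1 of 9 testosterone arrays. Fabp4, its main counterpart in fat cells, differed by 0.30 ± 0.40. None of the 23 probes of 15 lipolysis and adrenergic signalling genes was called. Their median was -0.25, and 20 of 23 were negative, with the triglyceride lipase Pnpla2 at -0.24 ± 0.10 and the receptor Adrb3 at -0.01 ± 0.22. Insulin signalling (21 genes), collagens and matrix (18) and cell cycle (14) had no called probe, and their medians were 0.07, -0.03 and -0.17. Of 20 adipogenic regulators (26 probes, median -0.01) only Bmp3 was called.

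Bmp3, a member of the BMP family that opposes other BMPs, was 8.02 to 10.24 (median 9.24) with blank and 7.32 to 8.44 (median 7.76) with testosterone, a difference of -1.29 ± 0.26 (SE, limma adjusted p = 0.00439). It thus went the other way from Gdf10, its closest relative. Lctl, a klotho-related membrane protein, was 6.77 to 8.44 (median 7.90) and 4.89 to 7.34 (median 5.61), a difference of -2.03 ± 0.29 (2.24e-05). Only XX T replicate 2, at 7.34, lay inside the blank range. Crtac1, a protein of the extracellular matrix, was 5.86 to 8.003 and 4.58 to 5.97, with a difference of -1.45 ± 0.30 (0.00818), and was detected in 1 of 9 testosterone arrays. Cdsn, corneodesmosin, an adhesion protein of cornified skin, was 10.39 to 12.17 (median 11.64) and 9.93 to 10.87 (median 10.33), with a difference of -1.20 ± 0.22 (0.00217). The transcripts listed as LOC195357 and LOC386463, whose symbols were not matched to a current gene, differed by -1.37 ± 0.27 and -1.31 ± 0.25.

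Mest, an imprinted gene known as a marker of fat mass expansion, was uneven between the genotypes. It was at 7.05, 6.79 and 7.66 in XX B and at 4.67, 4.68, 6.08, 5.18 and 7.03 in XY- B, and no testosterone array exceeded 5.49. It was detected in 5 of 8 blank arrays and in none with testosterone. The arm means were 6.14 and 4.92, which bounds the decrease at at least 1.1-fold, and the fitted difference was -1.43 ± 0.30 (SE, limma adjusted p = 0.00818), with -2.24 in XX and -0.61 in XY-. The other 2 Mest probes differed by -0.90 and -0.52 and were not called (limma adjusted p = 0.259 and 0.429). Dnmt3l, a catalytically inactive partner of the DNA methyltransferases, was likewise not detected with testosterone (means 6.15 and 5.02, at least 1.1-fold lower, limma adjusted p = 0.0395), and its other probe was not called (0.247). The call of Mest ended with only the 17 arrays fitted (adjusted p = 0.269) and without XX B replicate 3 (0.0695). That of Dnmt3l ended under 7 alternatives, among them slide as a fixed block (0.225) and no background correction (0.0887, fitted difference -0.47), and on removing any single one of 13 of the 17.

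The called probes outside the lists and the named genes were mostly smaller, although 1 Gadd45g probe exceeded C4b and Serpina3n. Among those that rose were Gadd45g, a stress-induced growth arrest gene (2 probes, 1.20 and 0.86), the carnitine and creatine transporter Slc16a9 (1.004), the TNF-induced Tnfaip2 (0.95), the homeobox gene Msx1 (0.67) and the co-repressor Tle1 (0.65). Drd1 was not detected in any blank array and in 5 of 9 testosterone arrays, too dim for a fold. Among those that fell were the potassium channels Kcnh2 (-1.17) and Kcnk2 (-1.14), the parathyroid hormone receptor Pth1r (-1.03), the endoplasmic reticulum peroxidase Gpx8 (2 probes, -0.97 and -0.85), the heparin-binding growth factor Mdk (-0.94), the homeobox gene Meox1 (-0.83) and the glycolytic enzyme Pfkl (-0.72). Mdk did not overlap between the arms, with 9.31 to 10.29 in blank and 8.39 to 9.18 in testosterone arrays.

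XY- T replicate 4 stood apart among the increases. It was the highest of the 9 testosterone arrays in all 12 of the named genes that rose, and XY- T replicate 2 the lowest in 9 of them. The mean of the macrophage marker probes was also highest in XY- T replicate 4, at 9.83, against 8.04 to 8.99 in the other 8 testosterone arrays and 8.17 to 9.44 in the blank arrays. That list had 12 of 16 genes tested (18 probes), 17 positive differences, a median of 0.24 and no call. Its part in the increases was not tested. Without that array all 12 were still called, with differences of 2.58 for Prtn3, 2.42 for Hp and 2.26 for Il1r2.

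Transcripts of neighbouring tissues varied strongly between arrays. Skeletal muscle markers (mean of 19 probes) were 8.70 to 9.64 in XX B, 11.85 to 13.21 in XY- B, 8.21 to 12.94 in XX T and 7.37 to 13.26 in XY- T, so that the blank arrays of the 2 genotypes did not overlap. The median muscle difference was 2.80 in XX and -2.12 in XY-. Lymph node markers (23 probes) spread from 5.41 to 10.36 across the arms. Liver markers (22 probes) were 10.71 in XX T replicate 4 and 5.71 to 7.82 in the other 16 arrays, and 4 of those 22 probes were detected in no blank array. Mammary epithelium markers (14 probes) were 7.88 to 9.77 in blank and 8.60 to 9.71 in testosterone arrays, with a median difference of -0.22 in XX and 0.99 in XY-. Brown and beige fat cell markers (12 genes, 16 probes) had a median difference of -0.09. None of these lists had a called probe.

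**Figure D3:**
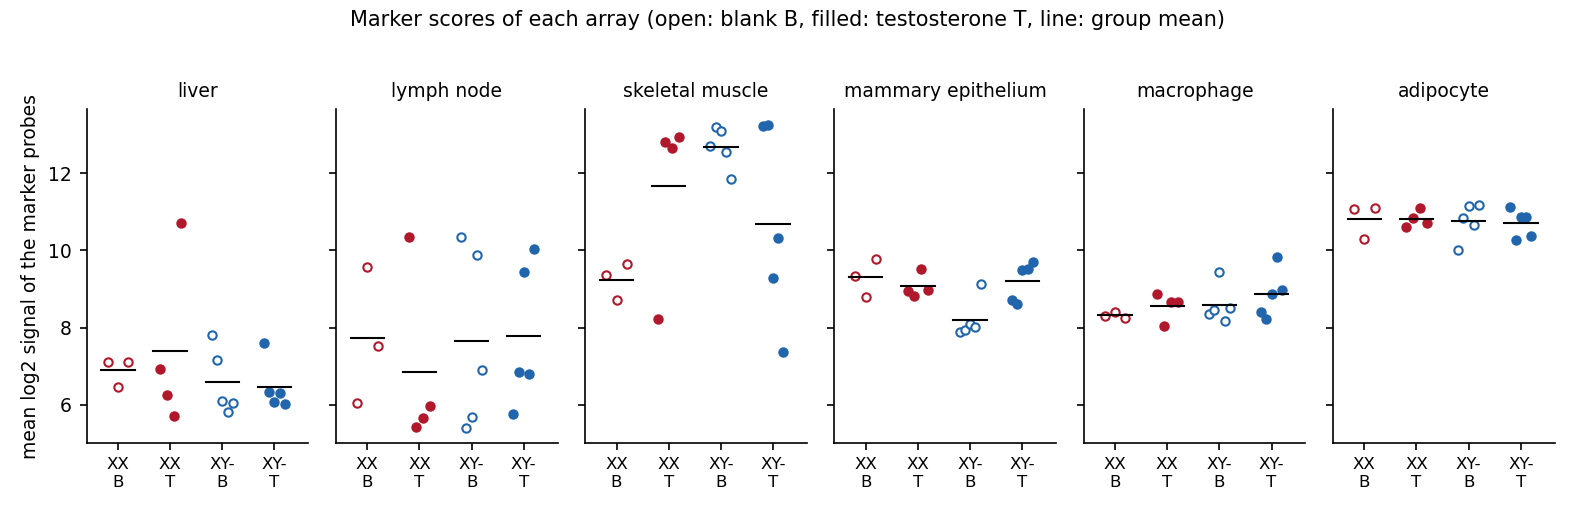
Mean log2 signal of the marker probes of 6 tissues or cell types in each array, by genotype (XX red, XY- blue) and capsule (B open, T filled), with the group mean as a line. Skeletal muscle markers part XX B (8.70 to 9.64) from XY- B (11.85 to 13.21), and 1 XX T array stands apart for liver at 10.71, while fat cell markers stay between 10.02 and 11.19.

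With the 4 scores of these tissues (liver, lymph node, muscle, mammary epithelium) as covariates, 60 of the 61 probes were called again, all 61 kept their sign, and Dctn3 (0.34 ± 0.08) was lost. The differences were 2.52 for Hp, 2.65 for Prtn3, 2.29 for Il1r2, -2.52 for Elovl6 and -2.07 for Tkt. The scores took a median of 20.9% of the within-group variance of the called probes and 25.2% over all tested probes. For single genes the share ran higher in Egfr (51.5%) and Bmp3 (45.9%), whose differences with the scores were 1.56 and -1.39. Adding the scores raised the number of calls to 125, of which 37.6% were higher in place of 44.3%.

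Blank and testosterone arrays shared only 2 of the 8 slides on which they were hybridised. With slide as a fixed block 38 probes were called (0.26%), of which 37 were among the 61, and all 61 kept their sign. Of the 12 named increases 12 remained called, and of the 12 named decreases LOC195357, Dnmt3l and Acss2 were lost. Within the slide that held 1 blank and 2 testosterone arrays 60 of the 61 differences had the same sign. So did 60 within the slide that held 2 of each. These arrays were also used to call the 61, which favours such agreement, and the share over all tested probes was not counted. Hp differed by 1.84 and 3.38 on those slides, Prtn3 by 2.87 and 3.72, and Elovl6 by -2.04 and -2.33. The slide that held 2 of each included XY- T replicate 4, the highest testosterone array in all 12 named increases. On the slide with 1 blank array that array was XY-, and the testosterone arrays were XY- and XX. Its plain differences of means therefore mix genotype with treatment.

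The difference between XX and XY- in the response was tested directly. limma called 0 of 14636 probes (0%), the smallest adjusted p was 0.0966 (Upk3a), and 1652 had an unadjusted p under 0.05. The interaction of Mest was -1.63 ± 0.60 (SE, limma adjusted p = 0.296). Of the 34 called decreases 32 were larger in XX, and of the 27 called increases 6 were. Over all tested probes the median of the XX minus XY- difference was -0.10, a shift in the same direction as these numbers. The XX groups hold 3 and 4 arrays and carried other muscle signal than the XY- groups, as given above. The count was not stable: it was 157 without XY- B replicate 5, 46 without XY- T replicate 1, 35 without XX B replicate 3 and 500 with array weights.

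The testis line, which shares no array with the ovary line, gave the same comparison in mice that had testes until the operation. There limma called 520 probes (3.55%), 270 higher and 250 lower. Of the 61 probes called in the ovary line 59 had the same sign in the testis line and 41 were called there too, against 67.1% with the same sign over all tested probes. Of the 12 named increases 12 had the same sign and 11 were called, all but Avpr1a (0.78 ± 0.24, SE, limma adjusted p = 0.0591). Hp differed by 3.47 ± 0.19, Serpina3n by 1.97 ± 0.17, Fkbp5 by 2.18 ± 0.27, Prtn3 by 1.71 ± 0.24 and Il1r2 by 2.06 ± 0.27. Of the 12 named decreases 11 had the same sign, all but Dnmt3l (0.26 ± 0.29), and 4 were called there (Elovl6, Lctl, Tkt and Fabp5). All 12 differences were smaller in size in the testis line, which a choice made on the ovary line values favours. In lipogenesis the testis line's median was -0.50 with 4 probes called, all lower. The SE of a typical probe was 0.21 in the ovary line and 0.19 in the testis line.

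**Figure D4:**
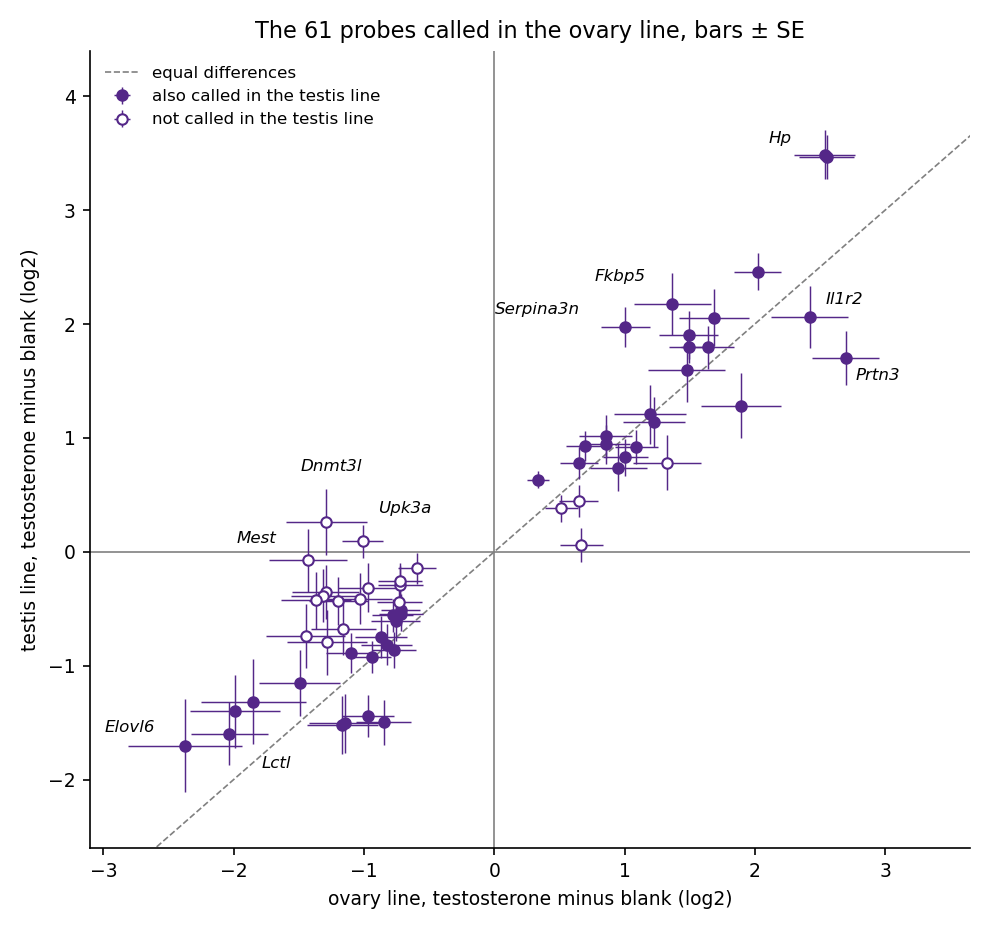
Difference between testosterone and blank (log2, ± SE) of the 61 probes called in the ovary line (horizontal axis) and of the same probes in the testis line (vertical axis), filled where also called in the testis line. Of the 61 points 59 have the same sign on both axes and 41 are filled, and Hp lies highest at 3.47 to 3.49 in the testis line for 2 of its probes.

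A response particular to the ovary line needs a test of the difference between the lines, and 2 probes passed it (0.0137% of those tested, 623 with an unadjusted p under 0.05). Upk3a, a uroplakin of the urothelial surface, was at 6.39, 6.93 and 7.51 in XX B and at 6.03, 5.26, 5.66, 5.93 and 6.97 in XY- B, and 4.81 to 6.05 with testosterone. It was detected in 5 of 8 blank and in no testosterone arrays, at least 1.25-fold lower (means 6.34 and 5.47). The difference was -1.01 ± 0.16 in the ovary line, 0.09 ± 0.15 in the testis line and -1.10 ± 0.22 between them (limma adjusted p = 0.0441). In the testis line its means were 4.86 with blank and 4.95 with testosterone, below that 5.47, so there was little signal to lose. On the 2 slides shared by blank and testosterone arrays, Upk3a differed by 0.62 and -1.02. Myl12a, a regulatory myosin light chain, was 7.57 to 8.34 with blank and 7.37 to 7.99 with testosterone, and differed by -0.51 ± 0.13 in the ovary line, where it was not called (limma adjusted p = 0.0603), by 0.48 ± 0.12 in the testis line and by -0.99 ± 0.18 between them (0.0222). Of the 61 called probes 1 passed this test, and 18 had an unadjusted p under 0.05. Among these were Mest (-1.36 ± 0.41), Dnmt3l (-1.55 ± 0.43) and, with a larger increase in the testis line, Hp (-0.91 ± 0.29) and Serpina3n (-0.97 ± 0.26), with limma adjusted p from 0.493 to 0.768. Both calls rest on few arrays: 10 of the 17 ovary line arrays each ended that of Upk3a when removed, and 4 that of Myl12a. Without background correction they were -0.41 for Upk3a (adjusted p = 0.407) and -0.64 for Myl12a.

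Estradiol was compared with the same blank arrays, so its differences are given only beside those of testosterone. Prtn3 differed by 3.60 with estradiol and 2.70 with testosterone, Lrg1 by 1.68 and 1.50, and Hp by 2.15 and 2.55. Il1r2 differed by 1.70 and 2.42, Egfr by 1.13 and 1.64, C4b by 0.90 and 1.09, and Inmt by 0.77 and 1.89. Fkbp5 differed by 0.34 and 1.37, Gdf10 by 0.12 and 1.23, Serpina3n by 0.25 and 1.01, Avpr1a by -0.80 and 1.32, and Rprml by -0.74 and 1.48. For the decreases, Elovl6 differed by -1.85 and -2.37, Fabp5 by -1.84 and -1.49, Acss2 by -1.57 and -1.29, and Dnmt3l by -0.24 and -1.29. Of the 27 called probes that were higher with testosterone, 21 were also positive with estradiol. Of the 34 that were lower, 32 were also negative. The shared blank arrays favour such agreement, and the share over all tested probes was not counted. The SE of these estradiol differences was 0.15 to 0.42, and no test was made of the pairs.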

How the data were processed

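Total RNA of inguinal fat was measured on 1-colour Illumina BeadChips. The deposited table holds, per the file headers, a bead intensity and a detection p-value per probe and array, and the authors' intensity values behave as not background-corrected, with a lowest value of 92.6. The tool lumi is named in the submitters' processing notes, with no step or version given. A further 55 standard-error columns were not used. All 55 adipose arrays were background-corrected from the detection p-values (normexp), quantile-normalised with an offset of 16 and put on a log2 scale. Probes detected (p under 0.01) in at least 3 arrays were kept, and 14218 of 14636 tested probes (97.1%) had a symbol matched to a current gene, the others keeping the array's name.

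One mean for each of 12 groups was fitted with limma 3.58.1 in R 4.3.3, so that all groups share 1 estimate of spread, and p-values were adjusted by Benjamini-Hochberg over all tested probes. The fits were tested on simulated data with independent noise for each probe. The simulation held no slide or neighbouring-tissue variation, so it does not show how the fits handle these. The labels number no replicates and do not say that arrays come from separate animals, so replicates are numbered by accession order and p-values measure only the spread between these samples. Marker scores are means of log2 signal over a list's probes.

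Named genes are the 12 largest increases and the 12 largest decreases among called probes with the same sign in XX and XY- that were still called with the 4 other-tissue scores as covariates (1 probe per gene, that with the smallest p). To these were added Esr1, Pgr, Greb1, called members of the gene lists and called interactions. 1 further gene of this rule is not reported here. Other called genes and list members are named for description, after their values were seen. The genes, lists and comparisons were chosen with earlier results of these data known. An effect is given as "at least" a fold where a probe was detected in no array of an arm, from the lowest signal of detected probes. Alternatives were no background correction, median centring, other filters, only the 17 arrays, slide as a block, array weights, the scores, the array with conflicting labels left out or moved, and each array left out. The number of arrays limits the precision.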

Additional observations from a re-analysis of the deposited data

Results flagged for a closer look

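In XY- T replicate 4, Egfr was at 12.6 and Avpr1a at 9.56, each far above the next array of the 5 in that group (11.39 and 8.02). In XY- T replicate 1, a Tkt probe was at 5.16, with the next array of the group at 6.19. Of the 102 gene and group combinations screened, chance alone puts an array this far out in about 1 in 20. The testosterone response differed between the ovary and the testis line by -0.99 for Myl12a and by -1.1 for Upk3a, both by the test of that difference. Upk3a was dim in the testis line with either capsule (means 4.86 with blank and 4.95 with testosterone).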

How the results depend on the processing

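The count of 61 probes was 29 with median centring, 39 with only the 17 arrays fitted, 38 with slide as a fixed block, 145 with array weights, 125 with the 4 scores and 156 with 3 scores (without mammary epithelium, chosen after seeing the data), and 38 to 78 with 1 array left out, lowest without XX B replicate 3 and without XX T replicate 4. The testis line's 520 became 178 with median centring, 260 with slide as a fixed block and 880 with array weights, and 500 to 557 with 1 ovary line array left out. The XX against XY- count of 0 became 500 with array weights and 0 to 157 with 1 array left out (157 without XY- B replicate 5, 46 without XY- T replicate 1, 35 without XX B replicate 3). The 2 differences between lines became 0 with median centring, 1 each with no background correction, no filter, slide as a fixed block and XX E replicate 1 left out, and 0 to 2 with 1 array left out (0 without XY- T replicate 5, XX B replicate 2 or XX T replicate 4). Median centring moved the all-probe median of the XX against XY- difference from -0.10 to -0.19. The fitted value of the Greb1 probe, detected in neither arm, changed sign and was 0.27 with XX E replicate 1 taken as testosterone and -0.29 to 0.040 with 1 array left out, above 0 without XX B replicate 1. Prtn3, Hp, Il1r2, Inmt, Egfr, Lrg1, C4b, Elovl6, Lctl, Crtac1, Cdsn, LOC386463 and the first Tkt probe were called under every alternative run. Calls ended for Fkbp5 (adjusted p up to 0.108), Gdf10, Avpr1a, Serpina3n and Bmp3 (median centring, 0.136, 0.0658, 0.0573 and 0.0658), Rprml (XX E replicate 1 taken as testosterone, 0.0584) and Fabp5 (without XX B replicate 1, 0.0579). Bmp3 and LOC195357 were lost with only the 17 arrays fitted (0.101 and 0.0759). The calls of Mt1, Mest, Dnmt3l, Acss2, Acly and the other Tkt probe also ended, as given with their values. The causes were not tested. No paired analysis was possible because the labels carry no replicate numbers.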
